A study of Mus musculus with 6 samples.

Results

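The Hox genes encode homeodomain transcription factors that give cells their position along the head to tail axis of the embryo. They were examined here in mouse E14 embryonic stem cells after 16 h with or without a small dose of valproic acid or sodium butyrate, which inhibit histone deacetylases. Members were taken as the genes whose probeset carried a single symbol formed of Hox, a cluster letter from a to d and a number, with the probeset of highest mean over the 6 arrays standing for the gene. This gave 37 of the 19938 genes measured, each from its only such probeset. Hoxb8 shares its probeset with Hoxb7 and is given separately. The groups were 2 arrays of cells with 0.5 mM valproic acid (VPA), 2 arrays of cells with 0.2 mM sodium butyrate (NaBu) and 2 arrays of untreated cells. All cells were E14, grown on primary embryonic fibroblasts halted with mitomycin C, in medium with serum and leukemia inhibitory factor. The fibroblasts were part of the cultures, so RNA from feeder cells can be part of every sample. Values are log2 intensities made by RMA, a method that corrects background, normalizes between arrays and summarises probes, and levels of different probesets are not set against each other. The labels do not say that replicates 1 and 2 were separate cultures, so p-values measure the spread between samples, which may be technical.

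Mouse Hox genes lie in 4 clusters, a to d, and the genes of a cluster are numbered by their place in it. Low numbers are expressed earlier and further forward in the embryo, and high numbers later and further back, an order known as collinearity. In undifferentiated stem cells the clusters are held silent by Polycomb proteins, under histone marks of both the active and the repressed kind, and retinoic acid or loss of pluripotency opens them stepwise from the anterior end. Histone deacetylases take part in repressing many developmental genes, and VPA and butyrate inhibit several of these enzymes. VPA is a branched and butyrate a straight short-chain fatty acid, and the doses used here differed.

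Promoter sequence from RefSeq was at hand for 21 of the 37 members, in 23 windows of the 250 bases before a transcription start (build GRCm38.p6). Of Hoxb only Hoxb1 and Hoxb4 had a window, and of Hoxc only Hoxc4, so the windows describe mainly Hoxa and Hoxd. Of these windows, 12 had a ratio of observed to expected CpG of at least 0.6 (52.2%), against 34% of the 32851 windows of all genes. CpG-rich promoters are known as the usual sites of Polycomb binding in stem cells. The members' windows held a median of 13 CpG, from 2 to 35. The windows of 3 genes are shown: Hoxd13, the member that stood furthest above untreated cells with NaBu, Hoxd8, which had the highest moderated statistic with VPA, and Hoxb1, an anterior gene among the lowest with NaBu. Capitals mark CpG in the sequences of Hoxd13 and Hoxd8, and the motif TGATNNAT in that of Hoxb1.
Hoxd13, chr2:74667975-74668224, plus strand: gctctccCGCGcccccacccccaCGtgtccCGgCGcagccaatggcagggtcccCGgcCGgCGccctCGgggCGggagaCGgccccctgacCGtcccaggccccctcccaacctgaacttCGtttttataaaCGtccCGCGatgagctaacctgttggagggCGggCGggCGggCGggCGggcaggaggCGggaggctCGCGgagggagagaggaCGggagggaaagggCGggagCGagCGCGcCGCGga
Hoxd8, chr2:74704365-74704614, plus strand: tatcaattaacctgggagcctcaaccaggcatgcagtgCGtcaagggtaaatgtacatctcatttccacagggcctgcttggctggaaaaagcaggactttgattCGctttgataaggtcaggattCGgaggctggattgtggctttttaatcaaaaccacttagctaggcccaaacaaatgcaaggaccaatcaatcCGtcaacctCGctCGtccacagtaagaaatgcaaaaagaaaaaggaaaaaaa
Hoxb1, chr11:96365508-96365757, plus strand: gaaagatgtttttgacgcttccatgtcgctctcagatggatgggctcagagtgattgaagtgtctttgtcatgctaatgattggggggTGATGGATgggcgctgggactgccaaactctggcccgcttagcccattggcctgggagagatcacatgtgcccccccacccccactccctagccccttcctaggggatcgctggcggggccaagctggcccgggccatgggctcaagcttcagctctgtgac
Hoxd13 held 31 CpG and Hoxd8 6 in the same length. TGATNNAT, to which pairs of Hox and Pbx proteins are known to bind, began at position -162 from the start of Hoxb1, a gene known to maintain its own expression through such sites. Searched on both strands with overlaps counted, it stood in 3 of 23 member windows (13%) and in 7.68% of all windows. The motif was settled after the Hoxb1 sequence had been read. The Hoxb1 window, which is among the 3, was therefore bound to hold it, and the shares are not like for like. The retinoic acid receptor half-site AGGTCA stood in 6 (26.1%, against 14% of all), among them those of Hoxd8, Hoxd4 and Hoxb4. The Cdx motif TTTATG stood in 4 (17.4%, against 10.8%), and TATAAA in 3 (13%, against 12.4%), that of Hoxd13 among them. A match describes these letters and is no evidence of binding.

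The Hox probesets gave signal in the lower part of the arrays' range in every group. Signal averaged over the 6 arrays lay below the median of all genes (5.77 on the log2 scale) for 36 of the 37, and Hoxd13 was the exception. Because probesets differ in how brightly they bind their target, this places the signal on the array's scale and ranks no gene's expression. The members ranged from 3.08 to 6.65 and from 3.39 to 6.47 with VPA, from 3.33 to 6.89 and from 3.26 to 6.83 with NaBu, and from 3.15 to 6.58 and from 3.27 to 6.29 in untreated cells, in replicates 1 and 2 in turn. Their mean was 4.51 and 4.60 with VPA, 4.47 and 4.54 with NaBu, and 4.44 and 4.51 in untreated cells. The files give no call of detection, so whether a member with low signal was expressed or only background cannot be told from them. Of the markers of undifferentiated stem cells, Pou5f1, which encodes Oct4, had 11.12 and 11.13 with VPA, 11.68 and 11.56 with NaBu, and 11.90 and 11.63 in untreated cells. Of the feeder markers, the collagen gene Col1a1 had 8.18 and 9.34, 8.33 and 9.66, and 8.18 and 8.99 in the same order.

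**Figure D1:**
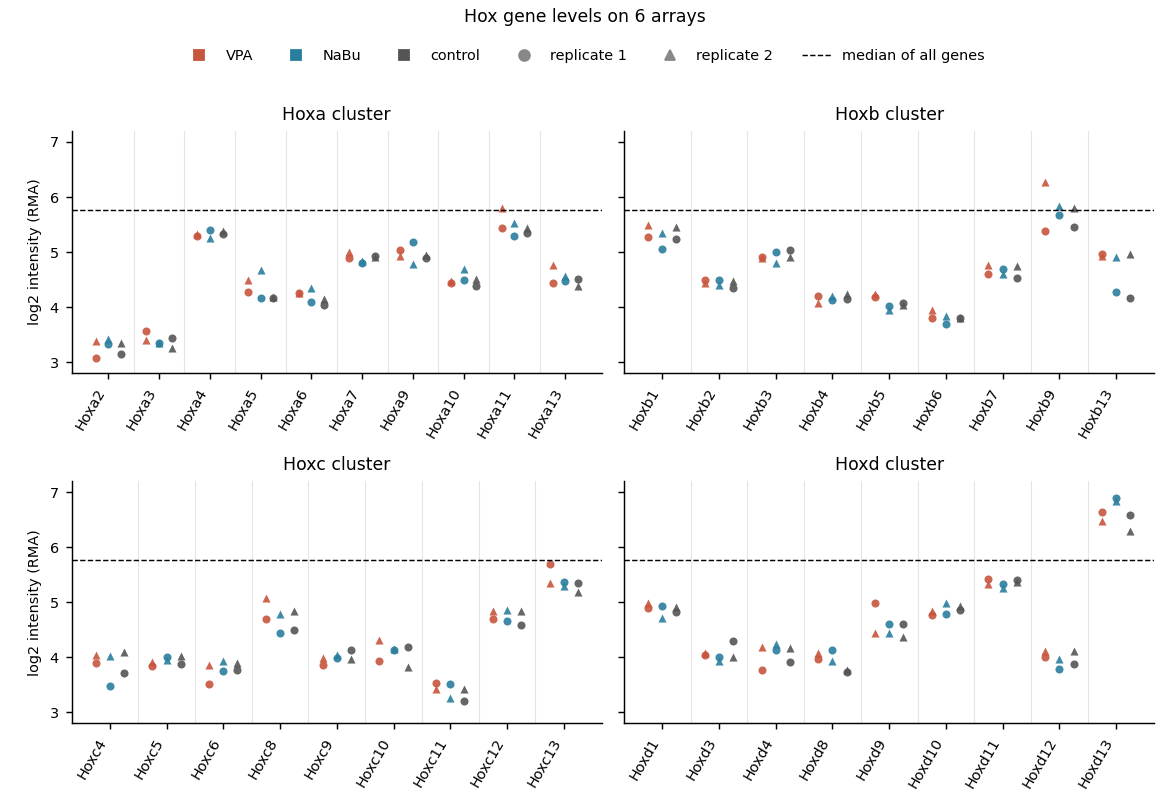
Log2 intensity of the 37 Hox genes on each of the 6 arrays, by cluster and from anterior to posterior; colours mark the groups, circles replicate 1 and triangles replicate 2, and the dashed line is the median of all genes (5.77). Hoxd13 alone lies above the line on every array, and for most genes the colours overlap.

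With VPA, no Hox gene passed the test. limma called 0 of the 37 at an adjusted p under 0.05, and 0% of the 19938 genes, and 0 of the 37 had an unadjusted p under 0.05, against 4.92% of all genes (2.74% higher and 2.18% lower). With the replicate number as a block the counts for Hox genes were again 0 at both thresholds, against 0% and 13.2% of all genes. The mean difference over the members was 0.08 (median 0.06), with 26 above 0 (70.3%), beside a median of 0.01 and 53% above 0 over all genes. Genes below the median level, where 36 of the members lie, had a median of 0.03 and 58% above 0. The mean was 0.04 when each array was centred on its median or quantile normalized, 0.03 without VPA replicate 2, 0.04 without untreated replicate 1 and 0.12 without VPA replicate 1. Within replicate number 1 the Hox mean was 0.06 with 24 above 0, and within number 2 it was 0.09 with 23 above 0. Only 15 members were above 0 in both numbers (40.5%, against 32% of all genes) and 5 below 0 in both (13.5%, against 28%), while 17 had opposite signs. The 95% interval lay inside -1 to 1, which is a change of 2-fold either way, for 36 of the 37 genes (97.3%), near the 93.5% of all genes and 96% of genes below the median level. It lay inside -0.5 to 0.5 for 24 of the 37, against 10151 of the 19938 genes. Both treated arrays stood above both untreated arrays for 7 members, against 19.1% of all genes, and below them for 3, against 15.6%.

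The members furthest above untreated cells with VPA, by limma's moderated statistic, came from all clusters. Hoxd8, active in the trunk of the embryo, had 3.96 and 4.08 with VPA and 3.73 and 3.77 in untreated cells. The groups did not overlap, and the difference was 0.27 (95% interval -0.04 to 0.57, limma adjusted p 0.964). Hoxc13, needed for hair and nail formation, had 5.70 and 5.35 with VPA and 5.34 and 5.19 in untreated cells, a difference of 0.25 (95% interval -0.12 to 0.63). Here replicate 1 with VPA was the high array, and replicate 2 with VPA lay just above untreated replicate 1. Hoxa11, which patterns the forearm, kidney and uterus, had 5.44 and 5.80 with VPA and 5.34 and 5.43 in untreated cells, with most of the difference of 0.24 in replicate number 2. Hoxb5 had 4.18 and 4.24 with VPA and 4.08 and 4.05 in untreated cells, a difference of 0.14 without overlap.

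On the low side, Hoxc9, a gene of the thoracic region, had 3.86 and 3.99 with VPA and 4.14 and 3.96 in untreated cells, and Hoxc6, of the same region, had 3.52 and 3.85 with VPA and 3.77 and 3.89 in untreated cells. These groups overlapped, with differences of -0.12 and -0.15. Hoxd10, which takes part in patterning the hindlimb and its motor neurons, had 4.77 and 4.84 with VPA and 4.85 and 4.93 in untreated cells. Hoxb3 of the hindbrain had 4.91 and 4.89 with VPA and 5.04 and 4.91 in untreated cells. The 2 groups of these last genes did not overlap, but by margins that were small beside intervals of -0.39 to 0.21 and -0.38 to 0.23.

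The largest VPA difference came from replicate number 1 alone. Hoxb13, the most posterior gene of its cluster, had 4.97 and 4.93 with VPA and 4.16 and 4.97 in untreated cells, so the difference was 0.81 in replicate number 1 and -0.04 in number 2, with a mean of 0.39 (95% interval -0.36 to 1.13) that became -0.02 without untreated replicate 1. It was the member whose interval reached past 1. With NaBu it had 4.28 and 4.91, so both untreated and NaBu cells were low in replicate 1. Hoxb9, which shapes the rib cage with its paralogues, had its high array in replicate number 2: 5.39 and 6.28 with VPA and 5.46 and 5.81 in untreated cells, a difference of 0.20 that became -0.25 without VPA replicate 2.

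With NaBu, Hoxd13 was the member that stood apart most, again without passing the test. limma called 0 of the 37 at an adjusted p under 0.05, and 0% of all genes, with and without the replicate block. At an unadjusted p under 0.05 there was 1 Hox gene, Hoxd13, against 1.56% of all genes (0.662% higher and 0.898% lower), and with the block again Hoxd13 alone, against 4.59%. Hoxd13 specifies digits and external genitalia. It had 6.89 and 6.83 with NaBu, 6.65 and 6.47 with VPA, and 6.58 and 6.29 in untreated cells. Both NaBu arrays lay above the other 4. The NaBu difference was 0.43 (95% interval 0.07 to 0.78, limma adjusted p 1.00), with 0.31 in replicate number 1 and 0.54 in number 2, and 0.17 to 0.69 with the block (adjusted p 0.994). It was 0.28 without untreated replicate 2 and 0.57 without untreated replicate 1. The VPA difference was 0.12 (95% interval -0.23 to 0.48), and -0.02 without untreated replicate 2. Because both treatments are set against the same untreated arrays, these values are not independent.

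Hoxd8 was next, with 4.13 and 3.93 with NaBu against 3.73 and 3.77 in untreated cells. The groups did not overlap, and the difference was 0.27 (95% interval -0.03 to 0.58), close to the one with VPA and read against the same 2 untreated arrays. Hoxa5, needed for lung and airway development, had 4.17 and 4.68 with NaBu and 4.16 and 4.19 in untreated cells, so the difference of 0.25 came from replicate number 2. Hoxa10, which acts in the lumbar spine and uterus, had 4.50 and 4.69 with NaBu and 4.38 and 4.51 in untreated cells, with overlap.

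By the moderated statistic the lowest members with NaBu were Hoxd3, Hoxb1, Hoxa7 and Hoxd12. By difference alone Hoxc4, at -0.15 with -0.24 in replicate number 1 and -0.06 in number 2, also stood among the lowest. Hoxd3, which shapes the first neck vertebrae, had 4.01 and 3.94 with NaBu and 4.29 and 4.0 in untreated cells, a difference of -0.17 (95% interval -0.50 to 0.16). Hoxb1, the gene of the fourth hindbrain segment, had 5.05 and 5.35 with NaBu and 5.25 and 5.46 in untreated cells, lower within each replicate number although the groups overlapped. Hoxa7 had 4.80 and 4.84 with NaBu and 4.93 and 4.92 in untreated cells, without overlap and with a difference of -0.10. Hoxd12, which acts with Hoxd13 in the digits, had 3.79 and 3.97 with NaBu and 3.88 and 4.11 in untreated cells. These 4 differences lay between -0.17 and -0.10.

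Over all members the NaBu mean was 0.03 (median 0.03), with 21 above 0 (56.8%), beside a median of 0.01 and 54.3% over all genes. It was 0.03 in both replicate numbers, with 19 above 0 in each. In both numbers 11 members stood above 0 (29.7%, against 29.1% of all genes) and 10 below 0 (27%, against 23.1%). Both NaBu arrays lay above both untreated arrays for 2 members, Hoxd8 and Hoxd13, against 12.7% of all genes, and below them for 3, Hoxa7, Hoxb5 and Hoxd11, against 11.2%. All 37 intervals lay inside -1 to 1, near the 96.1% of all genes and 97.2% of genes below the median level. The mean crossed 0 when NaBu replicate 2 (-0.0026) or untreated replicate 1 (-0.0059) was left out, and was 0.062 without NaBu replicate 1 and 0.065 without untreated replicate 2.

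**Figure D2:**
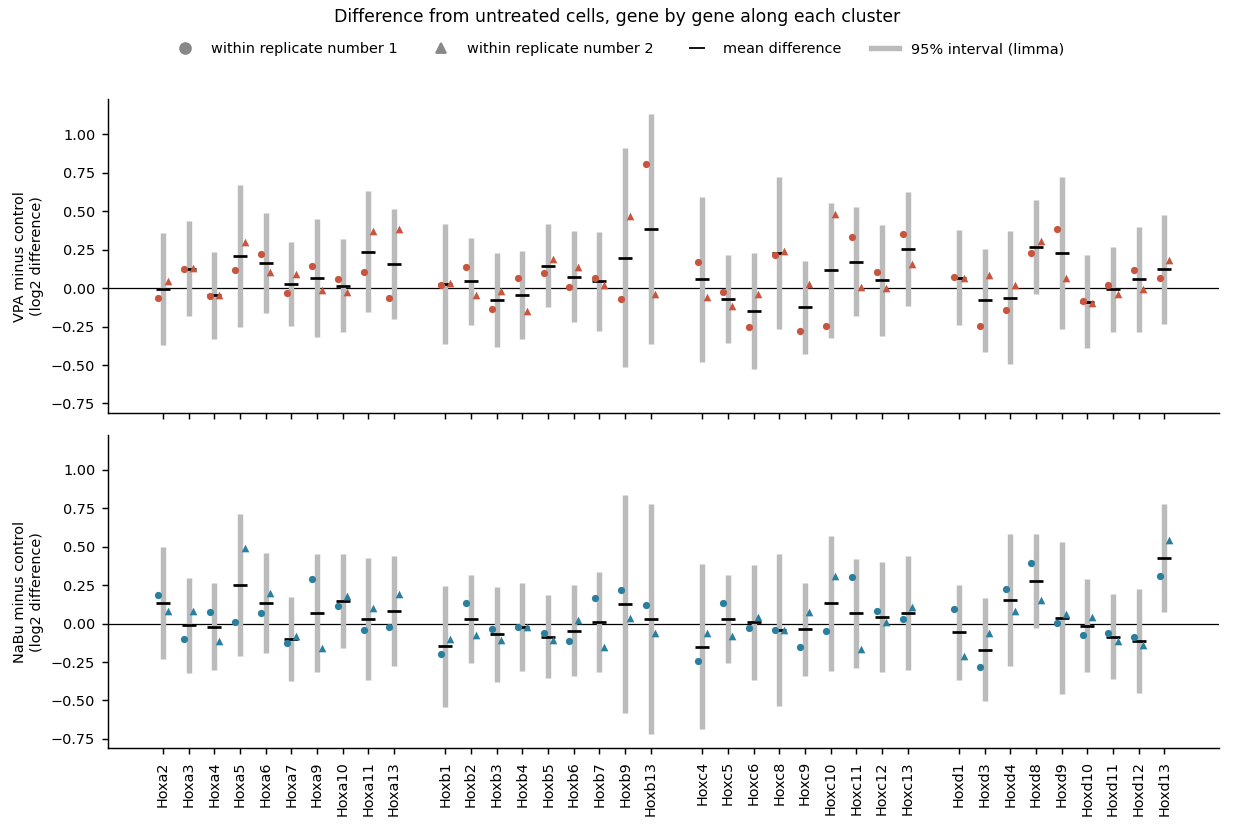
Log2 difference from untreated cells for each Hox gene with VPA (upper) and NaBu (lower), in cluster order; black bars are means, grey bars 95% intervals from limma, circles and triangles the differences within replicate numbers 1 and 2. With VPA all intervals include 0 and that of Hoxb13 is the widest; with NaBu the interval of Hoxd13 (0.07 to 0.78) lies above 0 before adjustment.

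The 4 clusters had means that lay close together. With VPA the mean difference was 0.09 for Hoxa (8 of 10 above 0), 0.09 for Hoxb (7 of 9), 0.06 for Hoxc (6 of 9) and 0.06 for Hoxd (5 of 9). The number above 0 within both replicate numbers was 4, 4, 3 and 4. With NaBu the means were 0.07 for Hoxa (7 of 10 above 0), -0.02 for Hoxb (4 of 9), 0.01 for Hoxc (6 of 9) and 0.05 for Hoxd (4 of 9). In Hoxb 4 genes were below 0 within both replicate numbers with NaBu, Hoxb1, Hoxb3, Hoxb4 and Hoxb5, at -0.15, -0.07, -0.02 and -0.08. These genes are neighbours except for Hoxb2, which had a difference of 0.13 in number 1 and -0.08 in number 2. With 1 array left out, the differences of Hoxb1, Hoxb3 and Hoxb4 crossed 0.

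Position along the cluster was described by paralogue group. Anterior genes (groups 1 to 3, n = 7) had a mean VPA difference of 0.01, central genes (4 to 8, n = 14) 0.06 and posterior genes (9 to 13, n = 16) 0.11. Of the posterior genes 13 lay above 0, but 5 did so within both replicate numbers, and 10 had opposite signs in the numbers. With NaBu the means were -0.04, 0.03 and 0.06, with 12 of 16 posterior genes above 0 and 6 within both numbers. Across the 37 genes the Spearman correlation of group number with the difference was 0.40 for VPA, but 0.22 in replicate number 1 and 0.18 in number 2. For NaBu it was 0.34, with 0.16 and 0.25. The points share their arrays and, between treatments, the untreated cells, so these are descriptions. The VPA differences of the members in number 1 and number 2, which share no array, had a Spearman correlation of 0.03, and the NaBu differences 0.06.

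**Figure D3:**
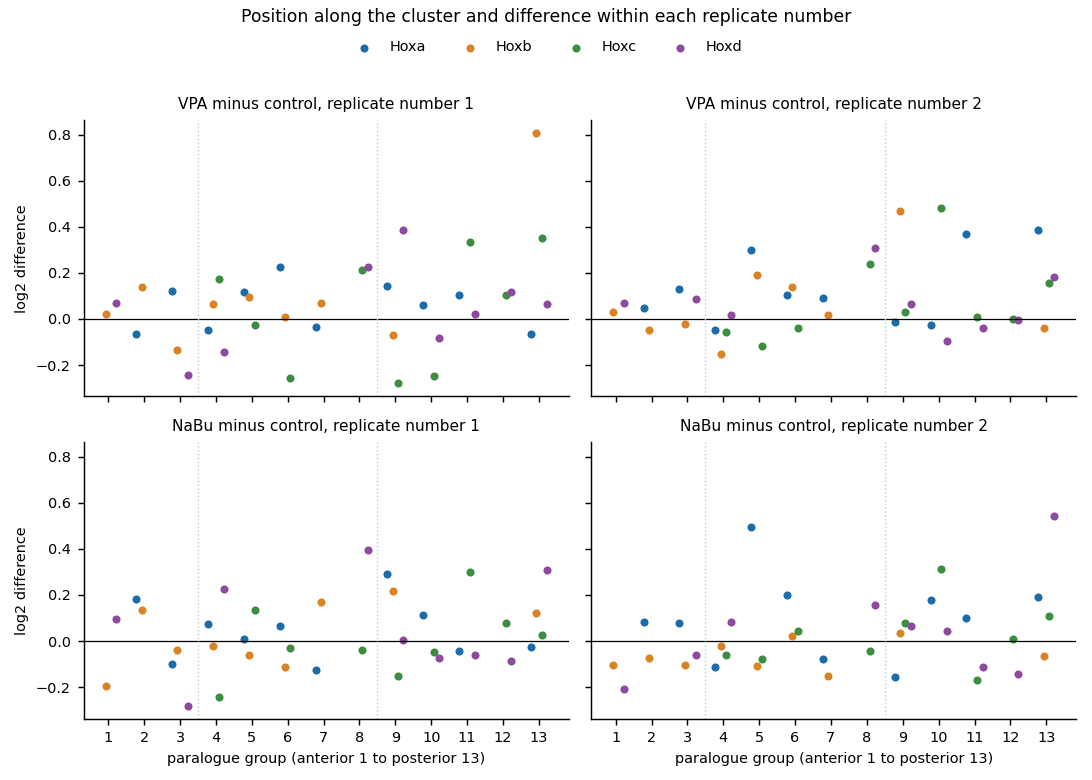
Log2 difference from untreated cells within replicate number 1 (left) and 2 (right) for VPA (upper) and NaBu (lower), against paralogue group from anterior 1 to posterior 13; colours mark the cluster and dotted lines part the anterior, central and posterior groups. The highest points differ between the sides: with VPA Hoxb13 (0.81) on the left and Hoxc10 (0.48) on the right, and with NaBu Hoxd8 (0.39) on the left and Hoxd13 (0.54) on the right.

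The members differed between replicates of the same group. Between replicates 2 and 1 the median size of the difference, sign left out, was 0.13 with VPA, 0.17 with NaBu and 0.15 in untreated cells. The median size of a treatment difference, which averages 2 arrays a group and so is not like for like, was 0.08 for VPA and 0.07 for NaBu. In all 3 groups 14 members were higher in replicate 2 (37.8%, against 23.2% of all genes) and 5 lower (13.5%, against 23.5%). Hoxc8, a thoracic gene, was 0.37 higher with VPA, 0.34 higher with NaBu and 0.35 higher in untreated cells. Hoxb9 was 0.89, 0.17 and 0.35 higher in the same order. Hoxd13 was lower in replicate 2 in each group. Feeder markers moved with the replicate number too: the mean of 16 was 0.98 higher in replicate 2 with VPA, 0.84 with NaBu and 0.62 in untreated cells, with 14 of 16 higher in each group. On the arrays their mean was 6.60 and 7.58 with VPA, 6.86 and 7.71 with NaBu, and 6.79 and 7.42 in untreated cells. Fibroblasts are known to express Hox genes. Whether feeder RNA had a part in the Hox values was not tested.

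Genes that act with or on the Hox clusters were compared as lists, and no member of any list passed an adjusted p of 0.05 in either comparison (0% of all genes did). Of 8 measured genes for DNA-binding partners of Hox proteins, 3 stood above and 5 below 0 with VPA. Meis1 had 5.32 and 4.85 with VPA and 4.50 and 4.53 in untreated cells, a difference of 0.57 (95% interval 0.15 to 0.98, limma adjusted p 0.964). Pbx2 had 6.94 and 7.43 with VPA and 7.56 and 7.83 in untreated cells, a difference of -0.51. Meis2 stood furthest from 0, at -0.64 (95% interval -1.25 to -0.02), with -1.19 in replicate number 1 and -0.09 in number 2. Meis3 stood at 0.34 (95% interval -0.09 to 0.77). Both VPA arrays lay above both untreated arrays for 2 of the 8, Meis1 and Meis3, and below them for 2, Pbx2 and Meis2. This is 25% each way, against 19.1% and 15.6% of all genes. With NaBu 2 of the 8 were above 0, Meis1 at 0.21 and Meis3 at 0.10. Pbx4 stood at -0.16.

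Of 22 genes that act upstream of the clusters (Cdx and retinoic acid genes, Gbx2, Egr2 and Gdf11), 13 were above 0 with VPA and 8 with NaBu. These are 59.1% and 36.4%, against 53% and 54.3% of all genes. Aldh1a2, which makes retinoic acid, had 6.95 and 5.59 with VPA, 5.63 and 5.36 with NaBu, and 5.35 and 4.86 in untreated cells. Its VPA difference of 1.17 (95% interval 0.13 to 2.21) was 1.60 in replicate number 1 and 0.73 in number 2, and the NaBu difference was 0.39. Rarb, which encodes a retinoic acid receptor, stood at 0.07 with VPA (95% interval -0.22 to 0.36) and -0.04 with NaBu. Its signal was below the median level of all genes, at 4.22 and 4.23 with VPA and 4.16 on both untreated arrays. Other retinoic acid genes stood further from 0 with VPA. Crabp2 was at 0.80 (95% interval -0.10 to 1.71), Cyp26a1 at 0.44 (0.04 to 0.84) and Rarg at -0.44 (-0.91 to 0.03). Both VPA arrays lay above both untreated arrays for 10 of the 22 genes (45.5%, against 19.1% of all genes). They lay below them for 5 (22.7%, against 15.6%). Cdx2, which activates central and posterior Hox genes, stood at 0.14 and -0.04. Gdf11, a signal for posterior Hox expression in the trunk, stood at 0.35 with VPA and -0.09 with NaBu, Cdx1 at -0.13 and -0.39, and the retinoid-binding Crabp1 at 0.25 and 0.34.

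Of 26 chromatin regulators (Polycomb and Trithorax genes, genes of histone demethylases that remove the Polycomb mark, and Ctcf of the insulator protein), 20 lay below 0 with VPA, 13 of them in both replicate numbers, with a median of -0.07. The 13 are 50%, against 28% of all genes. Most of the list lay at or above the median level of all genes. Of the 9969 genes at that level, 5184 lay below 0 with VPA and 35.4% in both numbers, with a median of -0.01. Pcgf2, which encodes a Polycomb subunit, had 7.17 and 7.12 with VPA and 7.61 and 7.43 in untreated cells, a difference of -0.38. Kdm6a, one of these demethylase genes, stood at -0.41, with -0.71 in replicate number 1 and -0.11 in number 2. With NaBu 17 of the 26 lay above 0 (65.4%) with a median of 0.02. Over all genes 54.3% did, and 57.7% of genes at or above the median level. Ctcf stood at 0.20 and the methyltransferase gene Kmt2b at 0.19. Cbx2 stood furthest from 0 in the list, at -0.20, with -0.04 in replicate number 1 and -0.37 in number 2. Of 8 stem cell markers, 7 stood below 0 with VPA, all 7 in both replicate numbers. That is 87.5%, against 28% of all genes and 35.4% of genes at or above the median level, where these markers lie. Pou5f1 stood at -0.64 (95% interval -0.97 to -0.31), with Esrrb at -0.30. With NaBu Pou5f1 stood at -0.14 and Sox2 at -0.18.

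Other homeobox genes outside the clusters had 17 of 29 members above 0 with VPA (median 0.02), and 20 of 29 below 0 with NaBu (median -0.12). Both NaBu arrays lay below both untreated arrays for 11 of the 29, against 11.2% of all genes and 3 of the 37 Hox genes. Most of the list lay below the median level of all genes, where the share was 15.3%. Both NaBu arrays lay above both untreated arrays for 2 of the 29, Emx2 and Msx2, against 12.7% of all genes. This held for 2 of the 37 Hox genes and 14.6% of genes below the median level. Emx2 stood furthest from 0 in the list with NaBu, at 0.51, with 0.30 in replicate number 1 and 0.73 in number 2. Msx2 stood at 0.31. Mnx1, a gene of motor neurons and pancreas, had 3.31 and 3.03 with NaBu and 3.61 and 3.71 in untreated cells, a difference of -0.49. Gsx1 and Gsx2, relatives of the anterior Hox genes that act in the forebrain, stood at -0.46 and -0.35 with NaBu. With VPA, Gsx2 stood at -0.30 and Mnx1 at -0.31.

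Among 23 genes next to the clusters, 11 were above 0 with VPA and 17 with NaBu. These are 47.8% and 73.9%, against 53% and 54.3% of all genes. Lnpk, which lies beside the Hoxd cluster and encodes a protein of the endoplasmic reticulum, had 7.96 and 7.80 with VPA, 7.71 and 7.66 with NaBu, and 7.44 and 7.49 in untreated cells. Its VPA difference of 0.41 (95% interval 0.13 to 0.70, limma adjusted p 0.964) was without overlap, and the NaBu difference was 0.22. Jazf1, from the side of Hoxa, stood at 0.37 with VPA and 0.03 with NaBu, and Ttll6 near Hoxb at -0.21 and 0.25. Markers of neural, mesodermal and endodermal derivatives were evenly split with VPA (6 of 12 above 0). Gata6 stood at -0.34 and Nes at 0.41. With NaBu 5 of 12 were above 0, Sox1 at -0.44 and Olig2 at -0.18. Feeder markers had 8 of 16 above 0 with VPA, 3 in replicate number 1 and 13 in number 2, with 14 of opposite sign in the numbers. Thy1 stood at 0.49 in number 1 and -0.07 in number 2, and Pdgfrb at 0.34 and 0.18. The lowest was Prrx1, at -1.29 and 0.25. With NaBu 15 of 16 feeder markers were above 0 (93.8%, against 54.3% of all genes), but 10 in replicate number 1 and 16 in number 2. Their mean was 0.07 in number 1 and 0.29 in number 2. Acta2 stood at 0.28, Col5a2 at 0.17 and Col1a1 at 0.41.

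**Figure D4:**
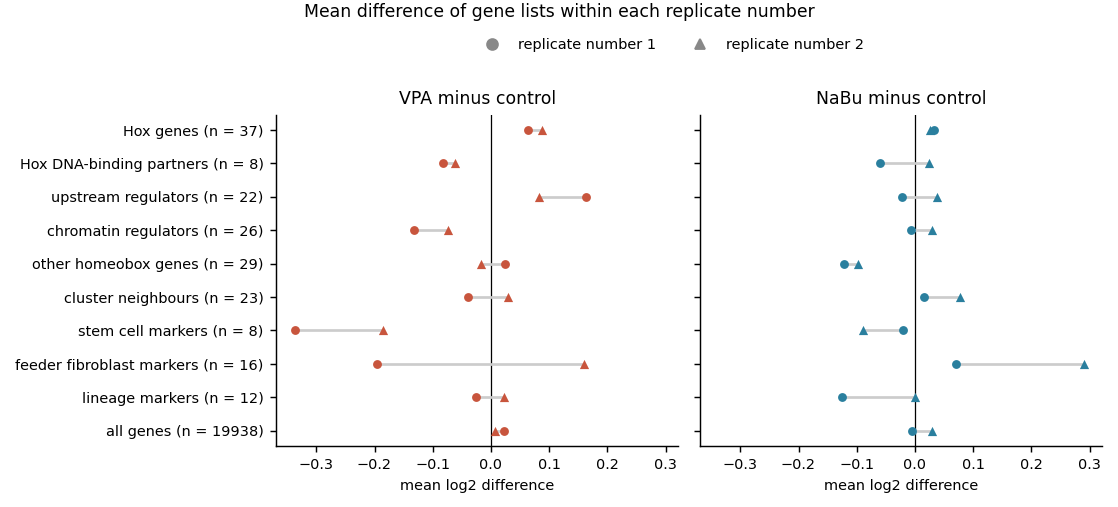
Mean log2 difference from untreated cells within replicate number 1 (circles) and 2 (triangles) for the Hox genes and the other lists, with VPA (left) and NaBu (right); n is the number of genes measured. The Hox means lie at 0.06 and 0.09 with VPA and at 0.03 and 0.03 with NaBu, and feeder markers are spread widest between the numbers with VPA (-0.20 and 0.16).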

How the data were processed

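Expression was measured in 6 samples on Affymetrix arrays. The deposited values are log2 intensities per probeset, 1 column per array, and the submitters' processing notes name RMA and Affymetrix Expression Console 1.1 as the authors' tools. Their settings were not given in the sources used here. Of 35556 probesets, 21789 carried a single symbol in the platform annotation, 1621 several and 12146 were not listed there. The probeset with the highest mean stood for each of 999 genes with more than 1, which left 19938 genes.

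The model was fitted across all genes by lmFit and eBayes of limma 3.58.1 (R 4.3.3), with 1 mean per group and 3 residual degrees of freedom, and p-values adjusted by Benjamini-Hochberg over all genes at a threshold of 0.05. Intervals are 95% intervals of this model. An exact permutation test of 2 against 2 arrays cannot go below p = 0.333, so none was used. VPA and NaBu were not compared with each other because their doses differ. Arrays of the same number tended to leave their group mean in the same direction, with r = 0.558 for VPA and control, 0.693 for NaBu and control and 0.567 for VPA and NaBu over all genes. This pairing was read from the values, not from the labels. Differences within each replicate number and a model with the number as a block, with 2 residual degrees of freedom, therefore stand beside the first model.

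Values on every array are given for the 4 Hox genes with the highest and the 4 with the lowest moderated statistic in each comparison, and for any at an unadjusted p under 0.05. Of each other list the 2 members with the largest statistic in each comparison are named, with Pou5f1, Col1a1, Cdx2 and Rarb in any case. Other Hox genes and other list members were named after their values were seen. The members and lists were chosen with earlier results of these data known. The motif TGATNNAT was settled after the Hoxb1 sequence had been read, and the Hox genes shown by sequence were chosen after their values were seen. The fit was tested on simulated arrays with independent noise and no effect of the replicate number. This checked only whether added changes were recovered on average, and does not measure how many real changes would pass. Alternatives were the block, an intensity trend, median centring and quantile normalization. Others were a filter on genes with low signal and the mean of all probesets per gene. Each array of the 2 groups compared was also left out in turn. The number of arrays limits the precision.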

Additional observations from a re-analysis of the deposited data

How the results depend on the processing

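The count of 0 Hox genes called by limma, for VPA and for NaBu, was the same with the replicate block and an intensity trend. It was also the same with median centring, quantile normalization, the mean of all probesets per gene and the filter on genes with low signal. Single arrays were left out only from the 2 groups compared, so the other treated group stayed whole. The replicate block changed no call. It leaves means and counts above 0 as they are (0.08 and 26 for VPA, 0.03 and 21 for NaBu), and Hoxd13 with NaBu had an adjusted p of 0.994. The filter on genes at or above the median level left 1 Hox gene, Hoxd13, so the count above 0 became 1 for each compound and the mean 0.43 for NaBu, by construction. With median centring the VPA mean was 0.04 with 23 above 0, and with quantile normalization 0.04 with 23. Leaving out single arrays moved the VPA mean between 0.03 and 0.12 (18 to 28 genes above 0) and the NaBu mean between -0.0059 and 0.065 (14 to 24 above 0). These fits have no block and leave 1 array in a group, which is assumed to vary like the others, so part of the difference between replicate numbers enters them. The lowest VPA mean came without VPA replicate 2, and the NaBu mean was below 0 without NaBu replicate 2 (-0.0026) and without control replicate 1 (-0.0059). With 1 array left out, 10 of the differences given for single Hox genes crossed 0, and the cause was not tested. With VPA, Hoxc6 lay between -0.31 and 0.020, Hoxb9 between -0.25 and 0.64, Hoxb13 between -0.021 and 0.79 and Hoxd13 between -0.025 and 0.27. With NaBu, Hoxb1 lay between -0.30 and 0.0017, Hoxb3 between -0.17 and 0.028, Hoxb4 between -0.067 and 0.021, Hoxc4 between -0.43 and 0.13 (0.036 without control replicate 2), Hoxa5 between -0.0061 and 0.51 and Hoxd12 between -0.23 and 0.0060. The files hold no measure of background, which limits what can be read from low signal.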

Other observations

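Other transcripts of the clusters on the array, which fall outside the rule for members, were measured too. The probeset shared by Hoxb8 and Hoxb7 had 3.82 and 3.56 with VPA, 3.36 and 3.28 with NaBu, and 3.53 and 3.83 in untreated cells, so both NaBu arrays lay below both untreated arrays, with a difference of -0.36. The probeset of Hoxb7 alone stood at 0.01 with NaBu. The microRNA precursor genes Mir10a and Mir10b, which lie in the Hoxb and Hoxd clusters and whose products are known to target Hox transcripts, had differences of -0.07 and -0.05 with VPA and -0.01 and 0.00 with NaBu. Mir196b of the Hoxa cluster had 3.44 and 3.19 with VPA, 3.08 and 3.50 with NaBu, and 3.75 and 3.31 in untreated cells. The long noncoding Hottip, at the posterior end of Hoxa, stood at -0.01 with VPA and -0.12 with NaBu. Hoxaas2, an antisense transcript of the same cluster, had 3.34 and 3.55 with VPA, 3.43 and 3.46 with NaBu, and 3.63 and 3.78 in untreated cells, lower on all 4 treated arrays than on both untreated ones. Of all genes, 15.6% lay below both untreated arrays with VPA and 11.2% with NaBu. Haglr stood at -0.11 with VPA and 0.08 with NaBu, Mir196a-1 at 0.03 and 0.09, and Mir196a-2 at -0.27 and -0.15. The probesets of Hoxd3os1 stood at -0.19 and 0.14 with VPA, and at 0.00 and 0.04 with NaBu. These differences have no test, and a probeset of a short or unspliced RNA can also read its host or neighbour.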
